A study of Homo sapiens with 6 samples.

Results

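The genes described here are those of receptor-driven and mitochondrial cell death: the ligands and receptors of the tumour necrosis factor (TNF) superfamily, the BCL2 family, the caspases and the inhibitor of apoptosis proteins. They were chosen by a rule on gene symbols that uses no values, but with earlier results of these data known. The families were taken by the start of their symbols, except that BIRC5 was left out. Single genes were added (BAX, BAK1, BAD, BID, BIK, BMF, PMAIP1, MCL1, HRK, XIAP, FAS, FASLG, FADD, CFLAR, TNF, LTA and LTB). Relatives with other symbols, such as BOK of the BCL2 family, are not members, so counts by family are not complete. BBC3 belonged to the choice too but has only a probe set that carries several gene symbols. In all, 73 of 19775 named genes were members, measured by 191 of 41091 probe sets that carry 1 gene symbol, and 3 of the 73 are non-coding genes beside receptor genes. Of the members, 26 have 1 probe set and 47 have several, and a gene's value is the mean of its probe sets.

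The cells were HT29, an established line from a human colorectal adenocarcinoma, grown in F12 medium with 7% serum. On the day after 300000 cells were plated, 3 cultures received 500 µg of a polyphenolic cocoa extract, with no volume stated, and 3 served as controls, which are titled untreated while the protocol names saline. After 24 h total RNA was taken, and an Affymetrix U133 Plus 2.0 array was hybridised for every culture. The results therefore describe 1 line, 1 dose and 1 time.

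Cells can be told to die from outside or from within. Ligands of the TNF superfamily bind receptors on the surface, and receptors with a death domain assemble the adaptor FADD and the initiator caspases CASP8 and CASP10, which the caspase-like protein CFLAR holds back. Damage from within is weighed by the BCL2 family: BH3-only proteins sense it, survival proteins such as BCL2L1 and MCL1 restrain BAX and BAK1, and once these open the mitochondrial outer membrane CASP9 is activated and executioner caspases follow. Many receptors of the superfamily carry no death domain and signal to survival or immune functions instead, and CASP1, CASP4 and CASP5 serve inflammation rather than apoptosis. In the colon these genes govern the turnover of epithelial cells and their killing by immune cells.

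The values are on the log2 scale, with every probe set's median over the 6 arrays set to 0. Arrays can thus be compared with each other, but no level of expression is given, so that HT29 identity could not be checked by levels of colon markers and genes cannot be ranked by abundance. In a gene with 1 probe set whose groups do not overlap, the centring makes the middle values mirror images, as in −0.22 and 0.22 of TNFSF13. A difference is cocoa minus control on the log2 scale from limma, fitted over all 19775 genes, with its standard error (SE) and n = 3 arrays per group throughout, and "adjusted p" is limma's p after Benjamini-Hochberg adjustment over all genes, with a threshold of 0.05. Control probe sets for 18S ribosomal RNA read 3.31 in cocoa array 2 and 1.40 in cocoa array 3, while the remaining arrays lay between −1.12 and 0.51. The 5′ minus 3′ signal of the control transcripts, a measure of RNA integrity, was lowest in these arrays, at −0.26 and −0.053, the remaining arrays lying between 0.009 and 0.033. Results are therefore also given with these signals as covariates and without single arrays. In bulk RNA, fewer cells expressing a gene and less of its RNA per cell cannot be told apart. Of 13 measured markers of leukocytes, fibroblasts and endothelium 0 passed the threshold in limma (0 also at an unadjusted p below 0.05), and their mean was −0.016 to 0.019 in control arrays and −0.072 to 0.062 in cocoa arrays. Of 12 colon epithelial markers 2 rose, CDH17 and GPA33, and 10 did not pass. The share changed was 16.7%, against 13.5% of all genes. At an unadjusted limma p below 0.05 were 4 of the 12, against 27.1% of all genes. Differences were above 0 in 11 of the 12, beside 9184 of all 19775 genes.

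Of the 73 members 14 changed, which is 19.2% against 13.5% of all genes tested. Cocoa arrays were higher in 8 of them (7.36% of all genes were higher) and lower in 6 (6.12% of all genes were lower). The rises were the larger changes. CASP1, the caspase that matures interleukin-1β, was 3.58-fold higher and TNFSF10, the death ligand TRAIL, was 3.34-fold higher. TNFSF13, TNFSF15 and TNFSF13B, all ligands of the same superfamily, rose 1.63-fold, 1.59-fold and 1.42-fold. The 6 members that fell (TNFRSF12A, TNFRSF21, TNFRSF10A, CASP2, BCL2L12 and BCL2L1) were between 1.2-fold and 1.38-fold lower. Changes of at least 1.5-fold were found in 4 members, each of them higher, against 2.26% of all genes. The median difference of the members was −0.0037, beside −0.012 for all genes, and their median absolute difference was 0.132, beside 0.0994.

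Leaving out any 1 of the 6 arrays kept 7 of the 14 calls: CASP1, TNFSF10, TNFSF13, TNFSF15, TNFSF13B, TNFRSF14 and BCL2L12. These were also the calls among the 14 that were kept with the 18S covariate (5.58% of all genes called) and with the 5′ minus 3′ covariate (7.14% of all genes called). The number of members changed was 7 without control array 2 and 8 without control array 1, against 14 without cocoa array 1. Of all 19775 genes 1315, 1623 and 2881 changed in the same fits, against 2666 with all arrays. With cocoa array 1 alone against the controls, a fit that assumes the lone array to vary like the others, CASP1, TNFSF10 and TNFSF15 passed. The arrays of the groups did not overlap in 31 members (42.5%), the 14 changed ones among them, against 32.5% of all genes.

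**Figure D1:**
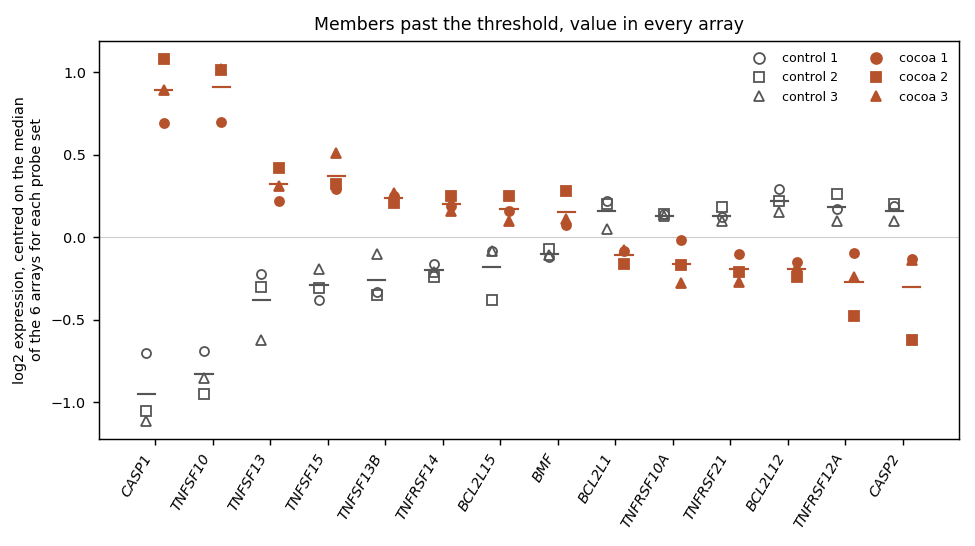
Centred log2 expression (vertical axis) of the 14 members past the threshold in each of the 6 arrays, controls as open grey and cocoa as filled orange symbols with 1 symbol shape per replicate number and lines at the group means. CASP1 and TNFSF10 are separated by 1.84 and 1.74, and the value of CASP2 in cocoa array 2 (−0.62) lies apart from those in cocoa arrays 1 and 3.

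The start regions of 4 members are shown because rises and flat neighbours were compared for a motif of interferon-activated genes. They are the RefSeq promoter windows of GRCh38.p14, 250 bases before to 50 after the gene's start, printed 5′ to 3′ on the gene's strand. Capitals mark matches to an ISRE-like motif (interferon-stimulated response element), that is GAAA followed after 2 bases by GAAA, on either strand. TNFSF10 (chr3:172523381-172523680, minus strand) and TNFSF13B (chr13:108269379-108269678, plus strand) rose and hold 1 match each, TNFSF15 (chr9:114792481-114792780, minus strand) rose and holds none, and CASP5 (chr11:105023119-105023418, minus strand), beside CASP1 in the genome, did not pass and holds 2 overlapping ones.
TNFSF10: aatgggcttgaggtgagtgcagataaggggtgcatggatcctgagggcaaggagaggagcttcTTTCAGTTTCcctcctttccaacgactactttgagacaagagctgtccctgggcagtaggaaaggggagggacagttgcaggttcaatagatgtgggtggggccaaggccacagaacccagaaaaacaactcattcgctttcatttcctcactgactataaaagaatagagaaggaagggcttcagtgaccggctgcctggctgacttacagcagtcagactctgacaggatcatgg
TNFSF13B: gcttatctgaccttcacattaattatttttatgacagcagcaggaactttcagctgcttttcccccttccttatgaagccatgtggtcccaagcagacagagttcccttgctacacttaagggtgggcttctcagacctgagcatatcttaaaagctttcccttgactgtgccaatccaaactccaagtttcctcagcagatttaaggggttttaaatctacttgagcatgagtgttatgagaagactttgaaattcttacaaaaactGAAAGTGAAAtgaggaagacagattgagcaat
TNFSF15: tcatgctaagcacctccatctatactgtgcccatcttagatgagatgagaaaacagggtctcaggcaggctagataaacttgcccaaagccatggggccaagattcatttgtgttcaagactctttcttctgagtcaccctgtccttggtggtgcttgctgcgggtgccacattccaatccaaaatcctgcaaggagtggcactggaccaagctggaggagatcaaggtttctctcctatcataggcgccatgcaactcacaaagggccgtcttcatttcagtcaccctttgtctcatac
CASP5: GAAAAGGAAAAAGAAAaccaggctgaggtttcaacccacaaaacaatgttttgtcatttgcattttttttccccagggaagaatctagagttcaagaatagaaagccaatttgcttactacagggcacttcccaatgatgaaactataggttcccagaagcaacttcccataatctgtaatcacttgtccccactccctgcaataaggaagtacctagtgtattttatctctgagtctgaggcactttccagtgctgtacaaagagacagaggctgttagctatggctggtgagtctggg

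Relative to the start site, the match of TNFSF10 begins at −187 and reads TTTCAGTTTC, and that of TNFSF13B begins at 18 and reads GAAAGTGAAA. Promoter windows were available for 54 members, but not for CASP1, the member with the largest rise. Of these 9 held an ISRE-like match, against 3.65% of 27305 promoters. They were 2 of the 7 members that rose and had an entry, 0 of the 4 that fell, and 7 of the 43 that did not pass, CASP8, FASLG, TNFSF9, TNFSF14, TNFRSF1B, BCL2A1 and CASP5. A GAS-like motif (interferon-γ-activated site, TTC followed after 3 bases by GAA, the same on either strand) was in 1 of 7, 0 of 4 and 7 of 43, against 7.88% of all promoters, and an NF-κB-like motif (GGGA followed after 2 bases by TTCC, on either strand) in 0 of 7, 0 of 4 and 3 of 43, against 1.63%. Matches of different motifs may overlap. A match describes the letters of a window and is not a tested binding site.

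Of the 14 ligands measured 4 rose (7.36% of all genes were higher) and 10 did not pass. The share changed was 28.6%, against 13.5% of all genes. TNFSF10 (TRAIL), which binds death receptors on tumour cells and is itself induced by interferon, read −0.69, −0.95 and −0.85 in control arrays 1 to 3 and 0.70, 1.01 and 1.02 in cocoa arrays 1 to 3. The groups stood far apart and cocoa array 1 was the lowest of its group. The difference was 1.74 (SE 0.10, adjusted p = 2.45e-05), and all 3 probe sets rose, by 1.59 to 2.02. The probe set without a suffix for possible matches to several transcripts read 1.61 (SE 0.095). Such suffixes are here _s_at and _x_at. Where ambiguous probe sets, or those that can match several transcripts, were dropped, only these were meant. Probe sets ending in _a_at were kept, although they too can match several transcripts of a gene.

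TNFSF15 (TL1A), a ligand linked to inflammation of the gut, read −0.38, −0.31 and −0.19 in the controls and 0.29, 0.32 and 0.51 with cocoa. The groups did not overlap, and the difference was 0.67 (SE 0.084, adjusted p = 0.00128). Of its 2 probe sets one rose by 0.94 (adjusted p over probe sets 0.00164) and the other had a difference of 0.39 (0.0515). TNFSF8, which follows TNFSF15 directly among the tested coding genes of its chromosome, had a difference of −0.13 (SE 0.10, adjusted p = 0.462).

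TNFSF13 (APRIL) and TNFSF13B (BAFF) support B cells and plasma cells, the latter also in the gut wall. TNFSF13 read −0.22, −0.30 and −0.62 in the controls and 0.22, 0.42 and 0.31 with cocoa, with control array 3 the lowest. Its difference was 0.70 (SE 0.11, adjusted p = 0.00306). It rests on 1 probe set, with a suffix for possible matches to several transcripts. TNFSF13B read −0.33, −0.35 and −0.10 in the controls and 0.25, 0.21 and 0.27 with cocoa, the cocoa arrays lying close together. Its difference was 0.50 (SE 0.08, adjusted p = 0.0039), and its 2 probe sets read 0.73 and 0.28, so that the call rests on the first. Without probe sets that can match several transcripts TNFSF13B had an adjusted p of 0.0992.

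The other 10 ligands had differences between −0.16 (LTA) and 0.12 (TNFSF9). TNF itself, the founding cytokine of the family, had a difference of −0.017 with a 95% interval of −0.18 to 0.15, and FASLG, the ligand of FAS, one of 0.028 with an interval of −0.14 to 0.19.

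Of 21 receptors measured 1 rose, 3 fell and 17 did not pass. The share changed was 19%, against 13.5% of all genes (7.36% higher and 6.12% lower). TNFRSF14 (HVEM), which carries signals of TNFSF14 and of the checkpoint receptor BTLA, was the one that rose. It read −0.16, −0.24 and −0.21 in the controls and 0.19, 0.25 and 0.16 with cocoa. Both groups were tight, and the difference was 0.40 (SE 0.063, adjusted p = 0.00373). It has 1 probe set. The antisense gene TNFRSF14-AS1 had a difference of 0.064 (SE 0.064, adjusted p = 0.592).

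TNFRSF12A (FN14), the receptor of TWEAK, had the largest decrease among receptors. It read 0.17, 0.26 and 0.098 in the controls and −0.098, −0.48 and −0.24 with cocoa, with cocoa array 2 the lowest. The difference was −0.45 (SE 0.099, adjusted p = 0.0173). The adjusted p was 0.0778 without control array 2, between 0.00896 and 0.0778 over the 6 fits without 1 array. The difference was −0.32 with the 18S covariate (adjusted p = 0.12) and −0.29 with the 5′ minus 3′ covariate (adjusted p = 0.0601). It was above the threshold without control array 1 as well.

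Among the 6 receptors with a death domain measured here 2 fell (33.3%, against 6.12% of all genes). TNFRSF21 (DR6) read 0.12, 0.18 and 0.099 in the controls and −0.099, −0.21 and −0.27 with cocoa, without overlap. Its difference was −0.33 (SE 0.069, adjusted p = 0.014), and both of its probe sets fell. The adjusted p was 0.0112 to 0.0731 over the fits without 1 array, above the threshold without control array 2 and without cocoa array 3, and 0.0921 with the 18S covariate.

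TNFRSF10A (DR4), a death receptor of TRAIL, read 0.14, 0.14 and 0.13 in the controls and −0.015, −0.17 and −0.28 with cocoa. The controls hardly varied and the cocoa arrays spread. Its difference was −0.29 (SE 0.077, adjusted p = 0.0371), with 3 probe sets all below 0. The call was kept without cocoa array 1 and lost without any other array (adjusted p 0.0126 to 0.121), and cocoa array 1 alone differed from the controls by −0.15. TNFRSF10B (DR5), the other death receptor of TRAIL, had a difference of −0.16 (SE 0.075, adjusted p = 0.21), which turned to 0.079 when probe sets with possible matches to several transcripts were dropped. The TRAIL decoys TNFRSF10D and TNFRSF10C had differences of −0.31 (SE 0.092, adjusted p = 0.0577) and −0.18 (SE 0.07, adjusted p = 0.138). A further decoy paired with TRAIL, TNFRSF11B, had a difference above 0, of 0.098 (SE 0.076, adjusted p = 0.473), with probe sets at 0.32 and −0.13. The 4 TNFRSF10 receptor genes are neighbours in the genome, in the order TNFRSF10B, TNFRSF10C, TNFRSF10D and TNFRSF10A. The non-coding gene TNFRSF10A-DT, beside TNFRSF10A, had a difference of −0.23 (SE 0.072, adjusted p = 0.0657).

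FAS read −0.076, −0.069 and −0.083 in the controls and 0.13, 0.054 and 0.099 with cocoa. The groups did not overlap, yet the difference of 0.17 (SE 0.06, adjusted p = 0.101) did not pass. Of its 5 probe sets, all above 0, 1 rose by 0.30. TNFRSF1A, the main receptor of TNF, had a difference of −0.26 (SE 0.085, adjusted p = 0.0782), and TNFRSF1B one of −0.26 (SE 0.08, adjusted p = 0.0668). Without control array 3 TNFRSF1A passed, at −0.35 (adjusted p = 0.0247).

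Known ligands were set beside their receptors in 24 pairs of 13 ligands and 18 receptors. The 4 ligands that rose belong to 11 pairs with 9 receptors, and in 0 of the pairs did ligand and receptor both rise. In 1 pair, TNFSF10 with TNFRSF10A, the ligand rose and the receptor fell. Over all genes 7.36% were higher and 6.12% lower, so that few calls in either direction would be found among any 9 genes. The receptor of TNFSF15, TNFRSF25 (DR3), had a difference of 0.013 (95% interval −0.13 to 0.16). The receptors of TNFSF13 and TNFSF13B had differences of −0.24 (TNFRSF13B), −0.033 (TNFRSF13C) and 0.059 (TNFRSF17). In the opposite case, TNFRSF14 rose while its ligands TNFSF14 and LTA had differences of −0.12 (SE 0.068) and −0.16 (SE 0.074). At an unadjusted p below 0.05, which 27.1% of all genes reached, were 10 of the 21 receptors and 4 of the 14 ligands, the latter a share near that of all genes.

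**Figure D2:**
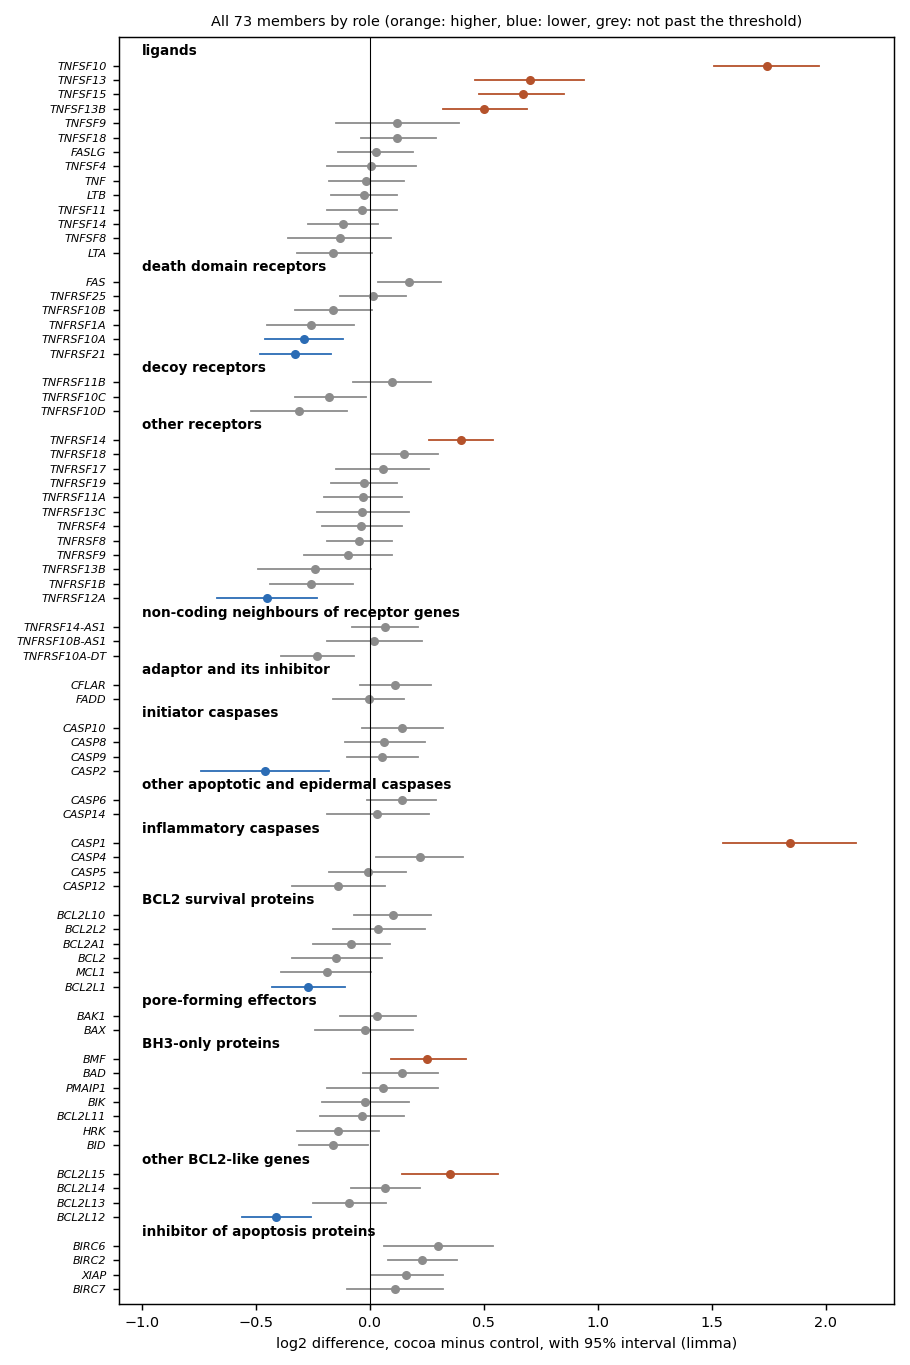
Log2 difference, cocoa minus control, with its 95% interval from limma (horizontal axis) for each of the 73 members (vertical axis), grouped by role and coloured by call. The ligands hold 4 rises, and of 21 receptors 15 lie below 0 and 6 above, 3 of them past the threshold below and 1 above.

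The adaptor FADD, which couples death receptors to initiator caspases, had a difference of −0.0037 with a 95% interval of −0.16 to 0.15, and its sign turned under quantile normalisation and under centring of the arrays. CFLAR, its inhibitor partner, had a difference of 0.11 (SE 0.07, adjusted p = 0.347) as the mean of 14 probe sets, which ran from −0.21 to 0.62. Of these 2 rose, with differences of 0.62 (SE 0.12, adjusted p over probe sets 0.0131) and 0.30 (SE 0.082, 0.0496). The first of these read −0.33, −0.19 and −0.26 in the controls and 0.19, 0.27 and 0.63 with cocoa. CFLAR makes long and short forms, and the mean over its probe sets does not separate them.

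Of 10 measured caspases 1 rose, 1 fell and 8 did not pass. That is 20% changed, against 13.5% of all genes (7.36% higher and 6.12% lower). CASP1, the enzyme of the inflammasome, read −0.70, −1.05 and −1.11 in the controls and 0.69, 1.08 and 0.89 with cocoa. The groups stood far apart, with a difference between means larger than in any other member. It was 1.84 (SE 0.13, adjusted p = 4.97e-05), and all 5 probe sets rose, by 1.31 to 2.48; the one without a suffix for several transcripts read 1.69 (SE 0.15). Its neighbours in the cluster did not pass: CASP4, which senses bacterial lipopolysaccharide in the cytosol, had a difference of 0.22 (SE 0.085, adjusted p = 0.133), CASP5, its close relative, one of −0.0094 (95% interval −0.18 to 0.16), and CASP12, listed as a pseudogene in RefSeq, one of −0.14 (SE 0.09). In the genome the 4 follow each other as CASP12, CASP4, CASP5 and CASP1 among the genes tested.

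CASP2, an initiator caspase of the DNA damage response, fell. It read 0.19, 0.20 and 0.096 in the controls and −0.13, −0.62 and −0.14 with cocoa, so that cocoa array 2 stood apart. The difference was −0.46 (SE 0.12, adjusted p = 0.0385), with 7 probe sets all below 0. Without cocoa array 2 it was −0.30 and the call was kept (adjusted p = 0.0371), while the call was lost without any 1 of the control arrays (adjusted p 0.0276 to 0.123 over the 6 fits of this kind). Cocoa array 2, where CASP2 was lowest, is also the array with the highest 18S signal. With the 18S covariate the difference of CASP2 was −0.27 (adjusted p = 0.23), and with the 5′ minus 3′ covariate −0.25 (adjusted p = 0.11).

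The other caspases of apoptosis did not pass. CASP8, the initiator at death receptors, had a difference of 0.063 (95% interval −0.11 to 0.24), CASP10, its relative, 0.14 (−0.034 to 0.32), and CASP9, the initiator at the mitochondrion, 0.053 (−0.10 to 0.21). CASP6, an executioner, read −0.12, −0.082 and 0.013 in the controls and 0.069, 0.12 and 0.031 with cocoa. Its difference was 0.14 (95% interval −0.013 to 0.29). Of the 25 genes set to be given whatever they did, 21 had a probe set with 1 symbol, and further executioners were not analysed here.

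The BCL2 family had 19 members here, of which 2 rose, 2 fell and 15 did not pass. The share changed was 21.1%, against 13.5% of all genes. The family's survival proteins held 1 decrease (16.7%, against 6.12% of all genes). BCL2L1 (BCL-XL), which restrains BAX and BAK1, read 0.22, 0.20 and 0.052 in the controls and −0.084, −0.16 and −0.077 with cocoa, without overlap. The difference was −0.27 (SE 0.071, adjusted p = 0.0371). Its probe sets disagreed in size: 2 with a suffix for several transcripts read −0.49 and −0.48, and the other 2 read −0.07 and −0.024. Without the first 2 the difference was −0.047 (adjusted p = 0.788). The call was kept without control array 3 and lost without any other array (adjusted p 0.0349 to 0.146).

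BCL2 had a difference of −0.15 (95% interval −0.34 to 0.051) and MCL1, a short-lived survival protein, one of −0.19 (−0.39 to 0.0059). In MCL1 the groups did not overlap, and its 6 probe sets ran from −0.49 to 0.038. The pore-forming effectors BAX and BAK1 had differences of −0.021 (95% interval −0.24 to 0.19) and 0.032 (−0.13 to 0.20). Neither sign was stable, that of BAX turning in 3 of the fits without 1 array and that of BAK1 in 1.

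Of the 7 BH3-only proteins 1 rose (14.3%, against 7.36% of all genes). BMF, which can bind survival proteins when cells lose their anchorage, read −0.12, −0.071 and −0.11 in the controls and 0.071, 0.28 and 0.11 with cocoa, with cocoa array 2 the highest. Its difference was 0.25 (SE 0.073, adjusted p = 0.0489), the closest of the calls to the threshold. The call was kept without cocoa array 1 and lost without any other array (adjusted p 0.0364 to 0.134). BID, which links CASP8 to mitochondria, had a difference of −0.16 (SE 0.067, adjusted p = 0.161), PMAIP1 (NOXA), a p53 target, 0.057 (95% interval −0.19 to 0.30), and BCL2L11 (BIM) −0.034 (−0.22 to 0.15).

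The 4 less studied BCL2-like genes held 1 rise and 1 decrease, beside 7.36% of all genes higher and 6.12% lower. BCL2L12, reported as an inhibitor of cell death, read 0.29, 0.22 and 0.15 in the controls and −0.15, −0.24 and −0.18 with cocoa. Its difference of −0.41 (SE 0.068, adjusted p = 0.00461) comes from 1 probe set with a suffix for several transcripts. BCL2L15 (BFK), a gene of the gastrointestinal tract, read −0.081, −0.38 and −0.083 in the controls and 0.16, 0.25 and 0.097 with cocoa, with control array 2 the lowest. Its difference was 0.35 (SE 0.093, adjusted p = 0.0365), and its 3 probe sets read 0.62, 0.36 and 0.077. The call of BCL2L15 was kept, at an adjusted p just under 0.05, without control array 3 and lost without any other array (up to 0.118).

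Of the 4 inhibitor of apoptosis proteins 0 passed in limma, and 3 had an unadjusted p below 0.05, against 27.1% of all genes. BIRC2 (cIAP1), a ubiquitin ligase at TNF receptors, read −0.14, −0.14 and −0.049 in the controls and 0.049, 0.15 and 0.16 with cocoa. Its difference was 0.23 (SE 0.066, adjusted p = 0.0519), the nearest to the threshold from outside. BIRC2 passed in 4 of 16 alternative fits. These were without cocoa array 1 (adjusted p = 0.0402), with array weights (0.0259), with quantile normalisation (0.0441) and with centred arrays (0.0449). BIRC6, a giant member of the family, had a difference of 0.30 (SE 0.11, adjusted p = 0.0984), and BIRC7 0.11 (SE 0.094). XIAP, the direct inhibitor of caspases, had a difference of 0.16 (SE 0.071, adjusted p = 0.174) over 7 probe sets, of which 2 rose, by 0.41 and 0.36, and the others ran from −0.31 to 0.34.

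The members just inside the threshold were TNFRSF10A, CASP2 and BMF (adjusted p 0.0371, 0.0385 and 0.0489), and those just outside were BIRC2, TNFRSF10D and TNFRSF10A-DT (0.0519, 0.0577 and 0.0657).

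On the level of single probe sets, 29 of the 191 changed (20 higher and 9 lower), which is 15.2% against 10.8% of all probe sets with 1 symbol. Of 9 changed genes with several probe sets, all 9 had the same sign in each of them. Their calls rest on the mean of these same probe sets, which favours a single sign, so the agreement is not separate support. Of the 47 members with several probe sets, 23 had a single sign in all, these 9 among them. In 7 members that did not pass as a gene a probe set did: FAS, CFLAR, XIAP and BCL2L14, each with a probe set or probe sets higher, BCL2L10, higher in 1 of 2, and TNFRSF10D and BCL2L13, each with 1 lower. In these genes the probe sets differed from each other, which their mean does not show.

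**Figure D3:**
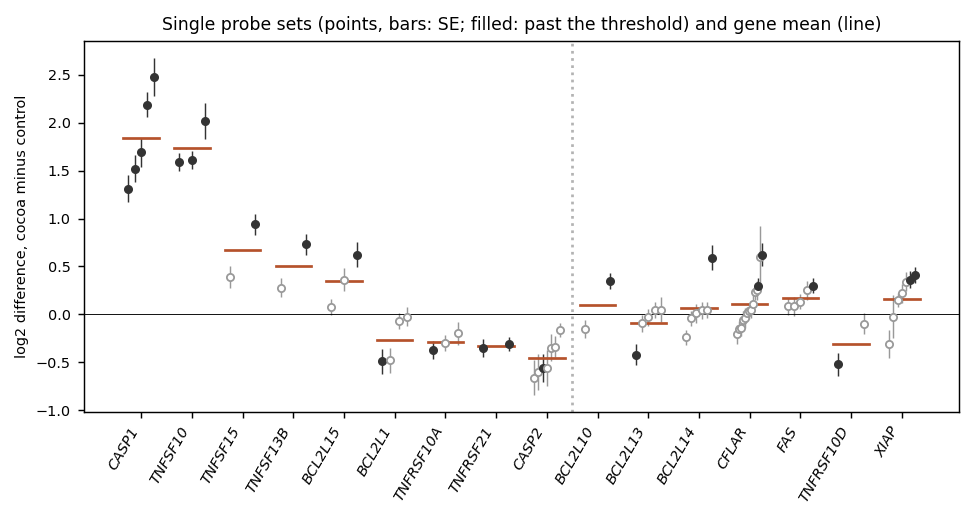
Log2 difference, cocoa minus control, of single probe sets with SE bars (vertical axis) for the 9 changed members with several probe sets (left of the dotted line) and the 7 members in which a probe set passed but the gene did not (right), with an orange line at the gene's mean. All 5 probe sets of CASP1 lie between 1.31 and 2.48, while those of CFLAR run from −0.21 to 0.62.

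Genes that act around these families were taken from lists chosen by textbook role, with earlier results of these data known. Of 29 measured adaptors and complex members at death receptors 2 rose, 3 fell and 24 did not pass. The share changed was 17.2%, against 13.5% of all genes, and the median difference was −0.057. RIPK3, the kinase of necroptosis, read −0.25, −0.51 and −0.24 in the controls and 0.31, 0.24 and 0.36 with cocoa, a difference of 0.64 (SE 0.085, adjusted p = 0.00169) that was kept in all 6 fits without 1 array. Its substrate MLKL, which breaks the plasma membrane, fell by 0.36 on the log2 scale (SE 0.079, adjusted p = 0.016; 0.00518 to 0.0674 without 1 array). OTULIN, a linear deubiquitinase, fell by 0.31 (adjusted p = 0.0187), and TRAF1, an adaptor at TNF receptors, rose by 0.35 (adjusted p = 0.0411). DEDD2 fell by 0.25, close to the threshold (adjusted p = 0.0494). Of the 6 fits without 1 array, MLKL and OTULIN passed in 2 each (OTULIN 0.0148 to 0.0759), TRAF1 in 1 (0.00523 to 0.14) and DEDD2 in 0 (0.0647 to 0.146). The count of 5 was 1 without control array 1, without control array 2 or without cocoa array 3, and 2 without cocoa array 2.

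Of 25 genes of the apoptosome and of execution 2 rose, 5 fell and 18 did not pass. The share changed was 28%, against 13.5% of all genes, and the median difference was −0.19. XAF1, an antagonist of XIAP, read −0.80, −0.78 and −0.93 in the controls and 0.97, 0.92 and 1.03 with cocoa, a difference of 1.81 (SE 0.069, adjusted p = 2.9e-06). GAS2, a caspase substrate of the cytoskeleton, rose by 1.03 (SE 0.081, adjusted p = 0.00011). DFFB, the nuclease that cuts DNA in apoptosis, and AVEN, an inhibitor of APAF1, fell by 0.41 and 0.42 (SE 0.071 and 0.077), and VDAC1, a channel of the mitochondrial outer membrane, fell by 0.31 (SE 0.07). Calls of XAF1, GAS2, DFFB and AVEN were kept in all 6 fits without 1 array, and that of VDAC1 in 1, without cocoa array 1 (adjusted p 0.0113 to 0.0724). The count of 7 was 4 when any 1 of the controls or cocoa array 2 was left out.

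Of 24 genes of inflammasomes and pyroptosis, the setting in which CASP1 acts, 3 rose, 0 fell and 21 did not pass. The share changed was 12.5%, near the 13.5% of all genes (7.36% higher and 6.12% lower), and the median difference was 0.061. IFI16, a nuclear DNA sensor, read −0.77, −0.98 and −0.88 in the controls and 0.83, 0.86 and 0.93 with cocoa, a difference of 1.75 (SE 0.074, adjusted p = 4.18e-06). PYCARD (ASC), the adaptor that joins sensors to CASP1, read −0.17, −0.48 and −0.34 in the controls and 0.26, 0.21 and 0.17 with cocoa, a difference of 0.55 (SE 0.085, adjusted p = 0.00346). GSDMB, a pore-forming gasdermin of epithelia, rose by 0.52 (SE 0.075, adjusted p = 0.00239). The 3 calls were kept in all 6 fits without 1 array and with both covariates. Without probe sets that can match several transcripts IFI16 and PYCARD are not measured and GSDMB had a difference of 0.26 (adjusted p = 0.0906).

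**Figure D4:**
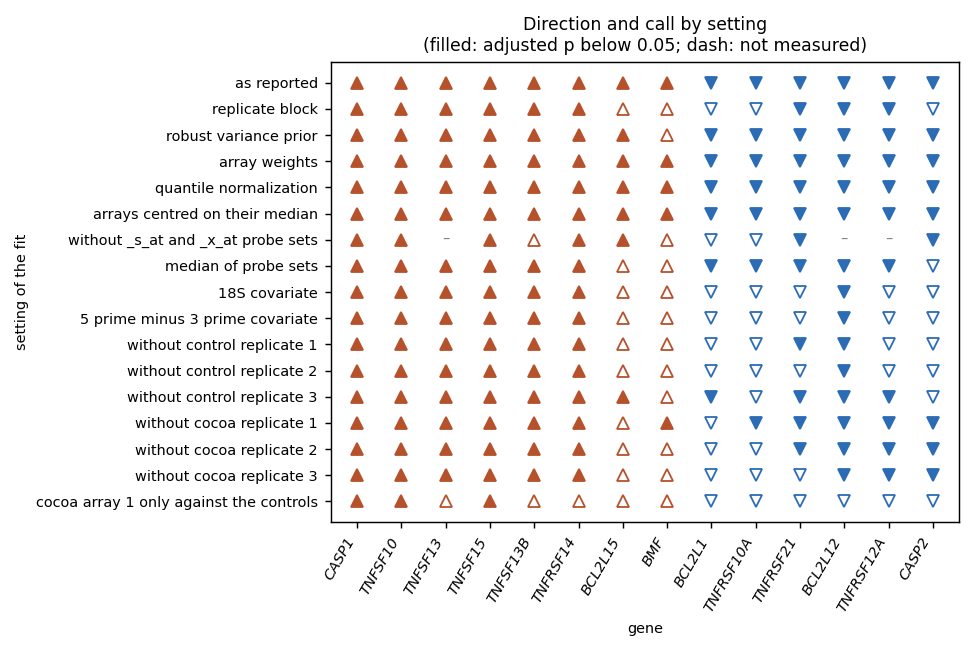
Direction and call of the 14 changed members (horizontal axis) in each fit (vertical axis); upward triangles are higher and downward triangles lower with cocoa, filled where the adjusted p was below 0.05, and a dash marks a gene not measured. No direction turned in these fits, and CASP1, TNFSF10 and TNFSF15 are filled in every fit.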

How the data were processed

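Total RNA of 6 HT29 cultures was labelled with biotin and hybridised to 1 array each, per the labels' protocols. The log2 values deposited by the authors were made with RMA per the submitters' processing notes, a method that sums up each set of probes after background and quantile steps. GeneSpring GX is the software that the design text names. No version is stated. The table holds 54675 probe sets with values from −2.42 to 4.02, and the median of each probe set over the arrays is 0 (within 5e-07). That the base of the logarithm is 2 follows from RMA and is not stated in the table. Detection, signal over background and scan batches are unknown. The number of arrays limits the precision, and p-values measure the spread between these cultures, which may be technical, since nothing says that they came from separate days or passages.

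Of 54613 probe sets without controls 41091 carried 1 symbol, 1801 several and 11721 none, by the platform annotation; 41037 matched RefSeq by gene identifier and 0 symbols were updated. Genes were fitted with limma 3.58.1 (lmFit, eBayes) in R 4.3.3. The members, lists and alternatives were chosen with earlier results of these data known. Named were all changed members with their values, 21 measured of 25 genes of known central role, members next to the threshold, and up to 5 changed genes of each list. Members named as partners or genome neighbours of these were chosen after their values were seen. Alternatives included a robust prior, array weights, a block for the replicate number, quantile normalisation, median centring, other uses of probe sets, covariates, other thresholds and leaving out each array. Cocoa array 1 alone against the controls was added after seeing the data. Simulated data with the same 19775 genes were used to test the fit, with 50 genes changed at each size. Recovered were 8% at a log2 change of 0.25, 56% at 0.5, 94% at 1 and 100% at 2, and 10 of 139 calls were false. Far fewer genes were changed there than the 2666 called in the data. The adjustment was therefore stricter in the simulation, and its shares do not carry over directly to the data. Promoter windows came from RefSeq (GRCh38.p14). Figures were drawn with matplotlib 3.10.9 and tables with pandas 2.3.3 (numpy 2.4.6) in Python 3.11.15.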

Additional observations from a re-analysis of the deposited data

Results flagged for a closer look

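Probe sets that carry several gene symbols were left out of the gene values, and 12 of them name a gene of these families. Tested over all 54613 probe sets with limma, 5 of the 12 passed an adjusted p of 0.05. The probe set shared by CARD16 and CASP1 was 1.90 higher on the log2 scale with cocoa (SE 0.16, adjusted p = 0.000584). The 3 probe sets shared only by TNFSF13 and the read-through TNFSF12-TNFSF13 were higher by 0.57 (adjusted p = 0.00875), 0.59 (0.0119) and 0.59 (0.00412), beside 0.70 for the probe set of TNFSF13 alone. A probe set shared by TNFRSF10C and LOC254896 was at −0.44 (SE 0.11, adjusted p = 0.048), beside −0.18 for TNFRSF10C itself. Among the 7 others, a probe set shared by TNFSF13, TNFSF12 and the read-through had a difference of −0.085 (SE 0.093, adjusted p = 0.677). The probe set shared by TNFSF12 and the read-through had one of 0.025 (SE 0.11, adjusted p = 0.934). That of BBC3 (PUMA), shared with MIR3190 and MIR3191, was at 0.018 (SE 0.14, adjusted p = 0.962).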

How the results depend on the processing

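Of 14 members called, the count was 9 with the replicate number as a block (6 higher, 3 lower; 1947 of all genes), 7 of 61 without probe sets that can match several transcripts, 7 with the 18S covariate, 8 with the 5′ minus 3′ covariate, 3 with cocoa array 1 alone, 4 at 1.5-fold and 7 at an adjusted p below 0.01. Same-numbered arrays did not deviate together (r −0.12, −0.009 and −0.003), so the block pairs them by number alone. Without 1 array it ran from 7 to 14. It was 11 to 15 with a robust prior, quantile normalisation, centred arrays or the median of probe sets, and 19 with array weights. Tested singly, probe sets gave 20 members with at least 1 probe set called, a count of another kind that has no value for single genes. For all genes the count of 2666 became 1103 and 1411 with the covariates, 845 with cocoa array 1 alone, 446 at 1.5-fold, 1152 at 0.01, and 1315 to 2881 without 1 array. The 5 calls among death receptor adaptors became 3 with the block, 3 without ambiguous probe sets, 1 and 2 with the covariates, 1 with cocoa array 1 alone, 1 at 1.5-fold, 1 at 0.01, and 1 to 7 without 1 array. The 7 calls of the apoptosome list became 4 without ambiguous probe sets, 4 and 4 with the covariates, 2 with cocoa array 1 alone, 2 at 1.5-fold, 4 at 0.01, and 4 to 8 without 1 array. The 3 inflammasome calls became 5 with array weights, 1 at 1.5-fold, 3 to 4 without 1 array, and 0 of 17 genes without ambiguous probe sets, where IFI16 and PYCARD are not measured. Fewer genes or samples enter some of these fits, and other causes were not tested.

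No gene called changed direction. Among uncalled genes the direction turned for BAK1 (−0.0016 with array weights; −0.026 to 0.076 without 1 array) and for BAX (0.091 and 0.088 with the covariates, 0.17 with cocoa array 1 alone; −0.12 to 0.047 without 1 array). It turned for BCL2L11 with the median of probe sets (0.0094), the covariates (0.035 and 0.042) and cocoa array 1 alone (0.07), with −0.091 to 0.021 without 1 array. FADD read 0.012 with array weights, 0.0077 with quantile normalisation, 0.0037 with centred arrays, 0.051 and 0.021 with the covariates, 0.041 with cocoa array 1 alone, and −0.04 to 0.04 without 1 array. Without ambiguous probe sets CASP8 read −0.034 and TNFRSF10B 0.079, and PMAIP1 ran from −0.065 to 0.16 without 1 array. Small changes are at the limit of 3 arrays a group, and signal over background is unknown.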
